A study of Homo sapiens with 6 samples.

Results

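The 38 genes described here encode heat shock proteins, their cochaperones and the cytosolic chaperonin TRiC. They were chosen by gene name from the 60612 genes of the deposited table, and each name matched a row. By role they comprise 2 heat shock factors, 6 genes of the HSP70 and HSP110 families, 6 DNAJ genes, 3 HSP90 genes, 2 small heat shock proteins, 3 genes of the BAG and CHIP group, 6 HSP90 cochaperones, 2 chaperonin genes of mitochondria and 8 TRiC subunits. Although the set is named for the cytosol, 5 of its products are mitochondrial proteins, namely HSPA9, DNAJA3, TRAP1, HSPD1 and HSPE1. RNA was measured in PANC-1, an established line from a human pancreatic carcinoma. In 3 libraries the cells had been given 50 µM D(+)-raffinose pentahydrate, a plant trisaccharide, for 24 h, and the other 3 libraries are labelled only as PANC-1 cells, with no compound, vehicle or time, and are called untreated here because the series design names cells with and without raffinose. The groups rest on the title, source and description of each library, because the treatment text is the same on all 6 and names raffinose on the untreated libraries too. No label states that replicate libraries were separate cultures. The p-values therefore reflect only how these 6 libraries vary, and that variation may be technical. The series title places the comparison in the context of PI3K/AKT signalling, apoptosis and proliferation. It says nothing of chaperones.

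Chaperones bind unfolded or partly folded proteins and use cycles of ATP binding and hydrolysis to help them fold. HSP70 is recruited to its clients by DNAJ proteins and released from nucleotide by exchange factors such as the BAG and HSP110 proteins, HSP90 completes the folding of kinases and steroid receptors with a series of cochaperones, and TRiC encloses actin, tubulin and other clients in a double-ring chamber. When unfolded proteins accumulate, the factor HSF1 forms trimers that bind heat shock elements, inverted repeats of the unit GAA and its complement TTC separated by a pair of bases, and transcription of many chaperone genes increases. Tumour cells commonly carry high levels of these proteins under normal culture conditions.

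Promoters were searched for exact matches to such an element near the start site, and several stretches with a match are printed below. RefSeq promoter windows of GRCh38.p14, 250 bases before to 50 bases after the start site, were matched by symbol for 34 of the 38 genes. HSF1, STUB1, FKBP4 and CCT6A had no entry. The windows were searched on both strands for 3 alternating units (GAA, any 2 bases, TTC, any 2 bases, GAA, or the same beginning with TTC) and for the shorter element of 2 units, GAANNTTC or TTCNNGAA, which lies inside the longer one. The longer element occurred in the windows of 7 members, HSPA8, DNAJA1, DNAJB6, HSP90AA1, HSP90AB1, CHORDC1 and HSPD1, and in those of 0.608% of all 27305 genes in the promoter table. The shorter element occurred in 18 members and in 16.2% of all genes. Of the 7 TRiC genes with a window, 0 held the longer element and 3, TCP1, CCT2 and CCT4, held the shorter. A match is a description of these letters, and binding was not tested. The search allowed no altered unit and no gap, so a gene without a match may still carry an element. The 34 genes had 46 windows, since some genes have more than 1 start site, and 7 windows held the longer element. In the stretches below, each read 5′ to 3′ on the strand of the gene, capitals mark the longer element. Positions are counted from the start site of the window that held it. The stretches of HSP90AA1 and CHORDC1 and the second of HSPA8 lie wholly within exons that GENCODE 29 gives for the same gene. The element of DNAJA1, which begins at position 4 counting the start site as the first base, also lies in an exon and is not printed. In CHORDC1 and HSPD1 the capitals cover more than 3 units in a row. The start sites of the windows are not always the gene starts of the deposited table, if its unstated build is the same. The stretches of HSPA8, DNAJB6, HSP90AA1, HSP90AB1 and HSPD1 lie inside the deposited bounds of these genes. The HSPD1 element (chr2:197500068-197500085) also lies before the deposited start of HSPE1 at 197500140, although the HSPE1 window held no match.
HSPA8 at -245 to -203 (chr11:123062339-123062381, minus strand): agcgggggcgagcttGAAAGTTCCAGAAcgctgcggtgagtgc
HSPA8 at -63 to -35 (chr11:123062171-123062199, minus strand): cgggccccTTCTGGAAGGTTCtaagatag
DNAJB6 at -146 to -104 (chr7:157336858-157336900, plus strand): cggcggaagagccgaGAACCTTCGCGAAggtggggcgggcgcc
HSP90AA1 at -96 to -68 (chr14:102087112-102087140, minus strand): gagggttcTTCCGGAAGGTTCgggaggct
HSP90AB1 at -180 to -85 (chr6:44247763-44247858, plus strand): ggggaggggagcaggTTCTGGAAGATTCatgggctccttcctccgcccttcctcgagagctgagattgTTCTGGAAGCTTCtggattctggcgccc
CHORDC1 at -63 to -35 (chr11:90223084-90223112, minus strand): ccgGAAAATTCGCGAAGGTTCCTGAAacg
HSPD1 at -250 to -213 (chr2:197500053-197500090, minus strand): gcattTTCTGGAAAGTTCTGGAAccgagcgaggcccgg

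The classical heat-inducible pair HSPA1A and HSPA1B held only the shorter element in these windows, at nearly the same place in both. Their bases before the start site were identical at 235 of 249 positions (94.4%) when aligned with an offset of 1 base. Capitals mark the 2-unit element.
HSPA1A at -120 to -80 (chr6:31815423-31815463, plus strand): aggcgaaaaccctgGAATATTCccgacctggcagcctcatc
HSPA1B at -120 to -80 (chr6:31827618-31827658, plus strand): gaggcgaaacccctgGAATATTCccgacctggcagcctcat

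Across the 38 genes, the RNA levels differed little between raffinose-treated and untreated cells, and no gene passed the test. The lowest adjusted p among them was 0.178, for the HSP70 cochaperone BAG3. All 38 were among the 18863 genes expressed highly enough to be tested. By edgeR's quasi-likelihood test with Benjamini-Hochberg adjustment over all tested genes, 0 of the 38 were called higher and 0 lower at an adjusted p under 0.05, where 0.0371% of all tested genes were called higher and 0.0848% lower. At an unadjusted p under 0.05, 1 member was higher (6.21% of all tested genes) and 6 were lower (7.08%). Among the 7805 tested genes with a mean of at least 20 CPM, a level that all 38 members reach, 496 were higher and 859 lower. DESeq2 called DNAJB4 higher, where it called 1.76% of 14441 genes, and BAG3 lower, where it called 2.83%. Of those 7805 genes it called 127 higher and 294 lower.

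The fold changes of the 38 genes were small. They are given as log2 of raffinose over untreated from the edgeR fit, with the standard error (SE) or the 95% interval of that fit. The estimate was negative for 28 members and positive for 10, with a median of -0.05. All tested genes split as 9238 negative and 9625 positive, with a median of 0.01. The 7805 tested genes with a mean of at least 20 CPM split as 4263 negative and 3542 positive, with a median of -0.019. No member had an estimate beyond 0.5 in either direction, as 3195 of the 18863 tested genes did. Of those 7805 genes, only 254 did. For 31 of the 38 the 95% interval lay wholly between -0.5 and 0.5. The exceptions were HSF1, DNAJA3, DNAJB1, DNAJB4, DNAJB6, HSPB1 and PTGES3. The median SD of the members within groups was 0.0751 on the log2 scale, against 0.108 over those 7805 genes and 0.214 over all tested genes.

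**Figure D1:**
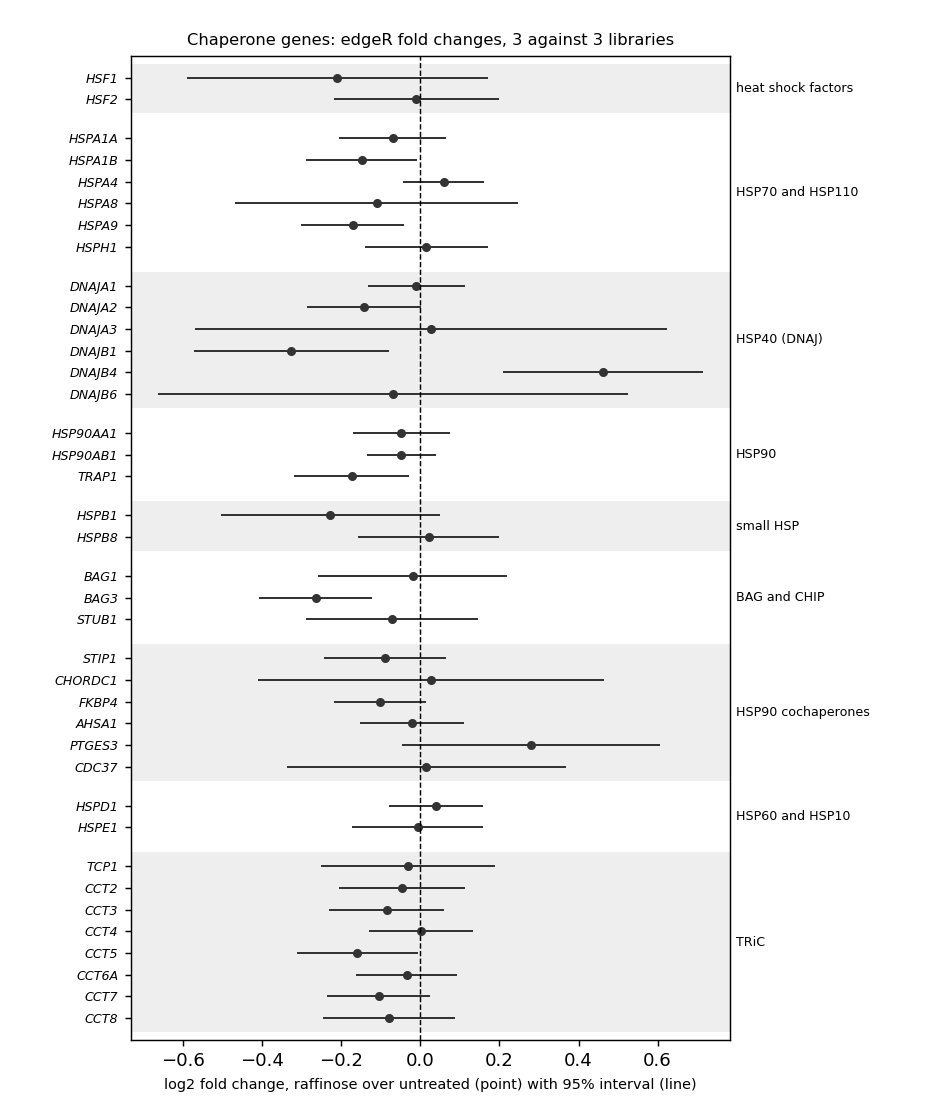
Fold changes of the 38 genes between 3 raffinose and 3 untreated libraries. The horizontal axis is the log2 fold change from the edgeR fit (0 means equal levels), points are estimates, lines are 95% intervals, and genes are grouped by family. DNAJB4 lies farthest to the right at 0.46 and DNAJB1 farthest to the left at -0.33.

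The libraries themselves, rather than the fitted values, show how far the groups separated. In 10 members each raffinose library lay below each untreated library on the CPM scale (counts relative to library size, after TMM scaling) (10.9% of all tested genes did so), and in 3 members each lay above (10.6% of all tested genes). The 10 were HSPA1A, HSPA1B, HSPA9, DNAJA2, DNAJB1, HSP90AB1, TRAP1, BAG3, FKBP4 and CCT5, and the 3 were HSPA4, DNAJB4 and PTGES3. Among the 7805 tested genes with a mean of at least 20 CPM, 1231 lay below and 803 above. This count depended on the scaling. On library totals without TMM factors, 7 members lay below (9.21% of all tested genes) and 4 above (13%), since HSPA1A, DNAJB1 and HSP90AB1 then overlapped and HSPD1 separated. The deposited FPKM values gave the same 7 and 4 genes, and the signs of the fold changes split as 22 negative and 16 positive on library totals and as 21 and 17 by limma on log2(FPKM + 1).

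A single library per group held many of the extreme values. Untreated library 1 was the highest of the 6 for 24 of the 38 members, and raffinose library 3 was the lowest for 19. These libraries also had the lowest and the highest TMM factor, 0.973 and 1.03. The members together took 1.79%, 1.87% and 1.81% of all counts in raffinose libraries 1, 2 and 3, and 1.91%, 1.81% and 1.87% in untreated libraries 1, 2 and 3, so the groups overlapped in this share. Without untreated library 1 the split was 24 negative and 14 positive, and without raffinose library 3 it was 26 and 12. The counts without overlap, chosen for a check after the data were seen, were 10 below and 4 above without untreated library 1 (16.4% and 16.3% of all tested genes) and 11 below and 3 above without raffinose library 3 (14.8% and 15.3%).

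**Figure D2:**
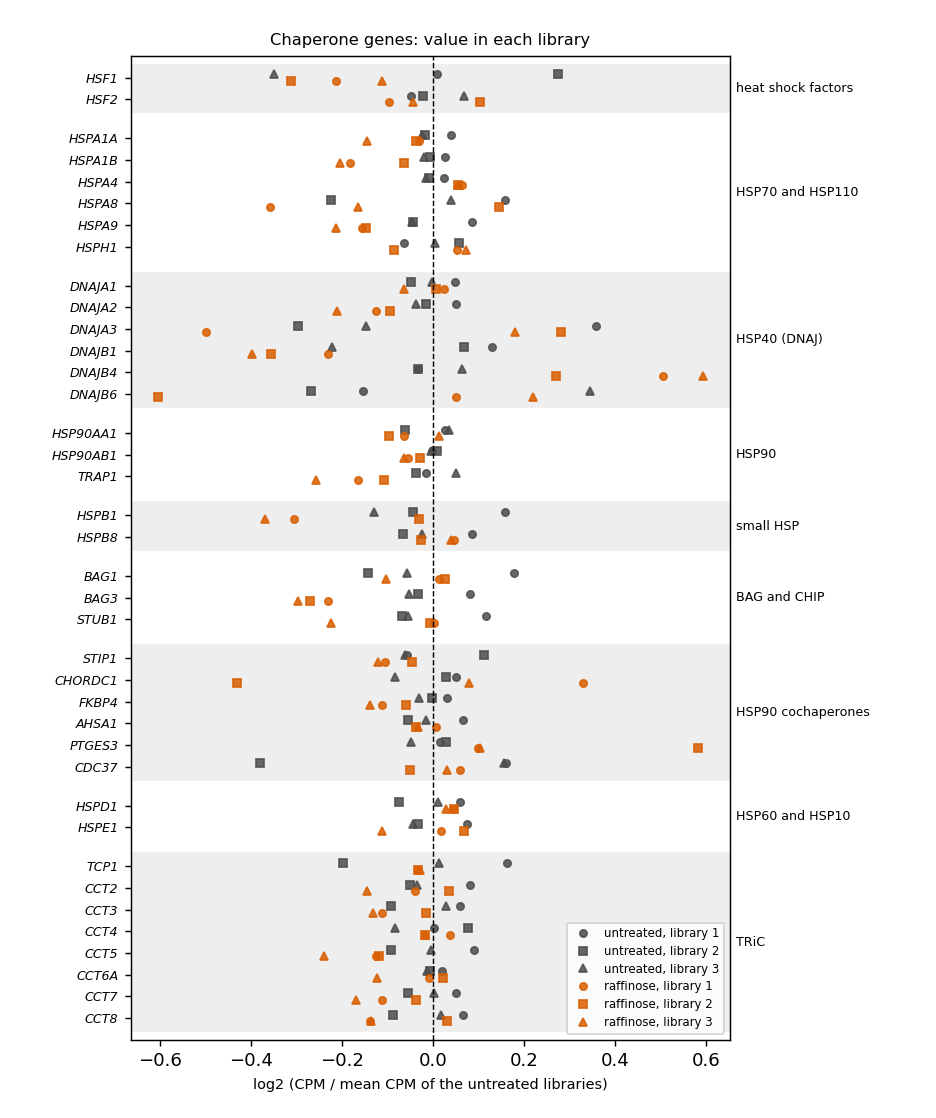
Level of each gene in each of the 6 libraries. The horizontal axis is log2 of the CPM divided by the mean CPM of the untreated libraries, grey symbols are untreated and orange symbols raffinose-treated libraries, and the symbol shape gives the library number. DNAJA3, DNAJB6 and CHORDC1 spread widely within a group, while the 6 values of HSP90AB1 lie close together.

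HSF1, the factor that drives the heat shock response, stood at 37.8, 35.3 and 40.6 CPM in raffinose libraries 1, 2 and 3 and at 44.0, 53.0 and 34.4 CPM in untreated libraries 1, 2 and 3. The untreated libraries alone spanned all of the raffinose values. Its log2 fold change was -0.21 with a 95% interval from -0.59 to 0.17 (edgeR adjusted p = 0.629). Without untreated library 2 it was -0.051, and without untreated library 3 it was -0.36. HSF2, a related factor that can pair with HSF1, was measured more tightly at 21.0, 24.1 and 21.8 CPM with raffinose and 21.7, 22.1 and 23.6 CPM without, and its interval ran from -0.22 to 0.20.

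Among the cytosolic HSP70 genes the constitutive member dominated. HSPA8, which folds new proteins in unstressed cells, stood at 1971, 2794 and 2256 CPM with raffinose and at 2820.2, 2163 and 2599 CPM without. The groups overlapped, since raffinose library 2 was nearly as high as the highest untreated library, and the log2 fold change was -0.11 (95% interval -0.47 to 0.25). It ranged from -0.26 without raffinose library 2 to -0.0015 without raffinose library 1. The stress-inducible genes HSPA1A and HSPA1B lie side by side on chromosome 6 and encode nearly the same protein. HSPA1A stood at 176, 175 and 162 CPM with raffinose and at 185, 177 and 177 CPM without. HSPA1B stood at 143, 156 and 141 CPM with raffinose and at 166, 162 and 161 CPM without. Neither pair of groups overlapped after TMM scaling, and the log2 fold changes were -0.07 for HSPA1A and -0.15 for HSPA1B (SE 0.06 for each, edgeR adjusted p = 0.651 and 0.354). In FPKM the groups of HSPA1A did overlap, at 57.9 to 61.7 with raffinose and 60.9 to 61.9 without, while those of HSPA1B stayed apart. Of all 150-base stretches in the annotated transcripts of HSPA1A, 63.2% also occurred in another gene, and 70% of those of HSPA1B did, so the split of reads between these genes is uncertain.

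HSPA9, also called mortalin, is the HSP70 of the mitochondrial matrix and helps to pull imported proteins inside. Its RNA stood at 946, 952 and 910.4 CPM with raffinose and at 1119, 1024 and 1021 CPM without, so each raffinose library was lower than each untreated one. The log2 fold change was -0.17 ± 0.05 (SE), with an unadjusted p of 0.0168 and an edgeR adjusted p of 0.274. HSPA4 and HSPH1 belong to the HSP110 branch and release nucleotide from HSP70. HSPA4 stood at 432, 429 and 429 CPM with raffinose and at 420.2, 410.2 and 408 CPM without. The groups did not overlap, although the log2 fold change was only 0.06 (95% interval -0.04 to 0.16). HSPH1 overlapped between the groups, and its log2 fold change was 0.01 (95% interval -0.14 to 0.17).

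DNAJ proteins bring clients to HSP70 and stimulate its ATPase. The gene with the largest positive estimate of all 38 members was DNAJB4 (ENSG00000162616, chr1:77979175-78017964 on the plus strand in the deposited table), a type II DNAJ protein. It stood at 25.3, 21.5 and 26.9 CPM with raffinose and at 17.4, 17.4 and 18.6 CPM without. Each raffinose library was above each untreated one, and the log2 fold change was 0.46 ± 0.11 (SE, 95% interval 0.21 to 0.71). Its edgeR unadjusted p was 0.0038 and its adjusted p 0.180, while DESeq2 gave an adjusted p of 0.0140. Over the 16 alternative settings the adjusted p lay between 0.0140 and 0.433, and the log2 fold change between 0.39 and 0.55.

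The largest negative estimate belonged to DNAJB1, the heat-inducible partner of HSP70 also known as HSP40. It stood at 216, 198 and 192 CPM with raffinose and at 277, 266 and 217 CPM without. The highest raffinose library and the lowest untreated library nearly met. Its log2 fold change was -0.33 ± 0.10 (SE), with an unadjusted p of 0.0170 and an edgeR adjusted p of 0.274. DNAJB1 and DNAJB4, close relatives within type II, thus had estimates of opposite sign. Neither passed the adjusted threshold by edgeR, while DESeq2 called DNAJB4 but not DNAJB1. DNAJB1 (chr19:14514769-14529308, minus strand) overlaps 12224 bases of TECR on the opposite strand, with a mean count of 14416 against 6314 for TECR, and for this table the strand setting of the counting was not stated in the labels or headers. Shorter overlaps of this kind are those of HSF1 with DGAT1 (137 bases, mean counts of 2591 and 1506) and of HSP90AA1 with WDR20 (197 bases, 93416 and 584).

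The other DNAJ genes gave no separation beyond that of DNAJA2. DNAJA2, a type I DNAJ protein of the cytosol, stood at 89.9, 92.0 and 84.7 CPM with raffinose and at 102, 97.1 and 95.6 CPM without, with a log2 fold change of -0.14 ± 0.06 (SE, edgeR adjusted p = 0.380). DNAJA1, the more abundant type I gene, had overlapping groups at 496 to 528 CPM with raffinose and 502 to 536 CPM without. DNAJA3, a DNAJ protein of mitochondria, ranged from 52.4 to 90.1 CPM with raffinose and from 60.4 to 95.0 CPM without, the widest spread within groups of all 38 genes (SD 0.386 on the log2 scale). DNAJB6, which suppresses the aggregation of polyglutamine proteins, ranged from 98.5 to 174 CPM with raffinose and from 124 to 190.3 CPM without (SD 0.384). For DNAJA3 and DNAJB6 the 95% intervals ran from -0.57 to 0.63 and from -0.66 to 0.52, and both intervals include 0 as well as the estimate of DNAJB4.

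HSP90AB1, the constitutive HSP90, had the highest FPKM of the 38 genes. It stood at 2489, 2534 and 2472 CPM with raffinose and at 2578, 2599.5 and 2575 CPM without. Its groups did not overlap after TMM scaling, with a log2 fold change of -0.05 ± 0.04 (SE, edgeR adjusted p = 0.625), but they did overlap in FPKM, at 704 to 712 with raffinose and 697 to 728 without. HSP90AA1, the inducible HSP90, stood at 1438, 1404 and 1516 CPM with raffinose and at 1529, 1438 and 1539 CPM without, and its log2 fold change was also -0.05. The ratio of HSP90AB1 to HSP90AA1 in FPKM was 2.95 ± 0.149 with raffinose and 2.95 ± 0.126 without (SD, n = 3 per group). The balance of the constitutive and the inducible HSP90 RNA therefore differed by less than the spread between libraries.

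TRAP1, the HSP90 of mitochondria, stood at 176, 183 and 165 CPM with raffinose and at 195, 192 and 204 CPM without. Each raffinose library was lower than each untreated one, under TMM scaling, library totals and FPKM alike. The log2 fold change was -0.17 ± 0.06 (SE), with an unadjusted p of 0.0255 and an edgeR adjusted p of 0.308. TRAP1 overlaps 28505 bases of DNASE1, which had a mean count of 478 against 11746 for TRAP1.

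Of the small heat shock proteins, which hold unfolded proteins without ATP, HSPB1 (HSP27) was the more abundant. It stood at 155, 187 and 148 CPM with raffinose and at 213, 185 and 175 CPM without. The groups overlapped through raffinose library 2, and the log2 fold change was -0.23 with a 95% interval from -0.51 to 0.05 (edgeR adjusted p = 0.460). HSPB8, which works with BAG3 in the autophagic clearance of misfolded proteins, stood at 29.1 to 30.6 CPM with raffinose and 28.3 to 31.4 CPM without, and its groups overlapped.

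BAG3 (ENSG00000151929, chr10:119651380-119677819, plus strand), a nucleotide exchange factor of HSP70 and an HSF1 target, had the smallest p of the 38 genes. It stood at 119.9, 117 and 115 CPM with raffinose and at 149, 138 and 136 CPM without. The values were close within each group, each raffinose library was below each untreated one, and the log2 fold change was -0.27 ± 0.06 (SE, 95% interval -0.41 to -0.12). Its edgeR unadjusted p was 0.0035 and its adjusted p 0.178, while DESeq2 gave 0.0275. Over the 16 alternatives the log2 fold change stayed between -0.29 and -0.22 and the adjusted p between 0.0275 and 0.433.

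The other genes of this group overlapped between raffinose and untreated libraries. BAG1, an exchange factor that links HSP70 to the proteasome, stood at 43.1 to 47.2 CPM with raffinose and 41.9 to 52.4 CPM without. STUB1 encodes CHIP, the ubiquitin ligase that marks clients of HSP70 and HSP90 for degradation, and stood at 55.0 to 64.4 CPM with raffinose and 61.3 to 69.6 CPM without. STUB1 overlaps JMJD8 on the opposite strand by 1132 bases, and the mean counts were 3968 and 2668. The log2 fold changes were -0.02 for BAG1 and -0.07 for STUB1, with upper bounds of the 95% intervals at 0.22 and 0.15.

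The HSP90 cochaperones had 3 positive and 3 negative estimates. PTGES3, the cochaperone p23 that stabilises the closed form of HSP90, stood at 333, 465 and 333 CPM with raffinose and at 314, 317 and 300.4 CPM without. The groups did not overlap, but the size of the difference rested on raffinose library 2. The log2 fold change was 0.28 ± 0.14 (SE, edgeR adjusted p = 0.443), and with each library left out in turn it lay between 0.10 and 0.36. The lowest of these values came from leaving out raffinose library 2. FKBP4, an immunophilin of steroid receptor complexes, stood at 297, 308 and 292 CPM with raffinose and at 328, 320.5 and 314 CPM without. Its groups also did not overlap, and the log2 fold change was -0.10 ± 0.05 (SE, edgeR adjusted p = 0.432).

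For the remaining cochaperones the groups overlapped. STIP1, the HOP adaptor that hands clients from HSP70 to HSP90, had a log2 fold change of -0.09 (95% interval -0.24 to 0.06). AHSA1, which stimulates the ATPase of HSP90, had -0.02 (95% interval -0.15 to 0.11). CDC37, which delivers protein kinases such as AKT to HSP90, stood at 172, 159 and 168 CPM with raffinose and at 184, 127 and 184 CPM without, where untreated library 2 was apart from the others. CHORDC1 stood at 98.1, 57.9 and 82.5 CPM with raffinose and at 80.8, 79.6 and 73.7 CPM without, so that raffinose library 1 was the highest and raffinose library 2 the lowest of all 6.

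HSPD1 (HSP60) and HSPE1 (HSP10) form the chaperonin of the mitochondrial matrix and are read outward from a shared stretch of chromosome 2, where the genes overlap by 135 bases. HSPD1 stood at 1097, 1098 and 1084 CPM with raffinose and at 1109, 1009 and 1073 CPM without, with a log2 fold change of 0.04 (95% interval -0.08 to 0.16). HSPE1 stood at 166, 172 and 152 CPM with raffinose and at 172, 160.1 and 159 CPM without. Both genes overlapped between the groups. The FPKM ratio of HSPD1 to HSPE1 was 2.97 ± 0.172 with raffinose and 2.87 ± 0.102 without (SD, n = 3 per group), a difference within the spread.

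TRiC is built of 8 different subunits, 1 copy of each per ring, and all 8 genes were measured at 377 to 1141 CPM. Of the estimates 7 were negative and 1 was positive, with a median log2 fold change of -0.06 and a range from -0.16 to 0.0011. CCT5 (ENSG00000150753) was the only subunit whose groups did not overlap. It stood at 982, 987 and 908 CPM with raffinose and at 1141, 1006 and 1069 CPM without. Its log2 fold change was -0.16 ± 0.06 (SE), with an unadjusted p of 0.0429 and an edgeR adjusted p of 0.362. CCT4 was the most even between the groups, at 835, 804 and 805 CPM with raffinose and 816, 858 and 768 CPM without.

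The other TRiC subunits overlapped between the groups. CCT7 stood at 780.1, 821 and 750.1 CPM with raffinose and at 873, 812 and 845 CPM without, and had a log2 fold change of -0.11 ± 0.05 (SE, edgeR adjusted p = 0.466). CCT3, CCT8 and CCT2 had log2 fold changes of -0.09, -0.08 and -0.05. CCT3 overlaps 9682 bases of TSACC on the opposite strand, which had a mean count of 114 against 41401 for CCT3, and TCP1 overlaps 615 bases of ACAT2 (mean counts of 27057 and 6812). CCT6A and TCP1, the subunit that gives the complex its name, each had -0.03. TCP1 was nearly constant with raffinose at 423, 423 and 424 CPM, but ranged from 377 to 484 CPM without. All 8 intervals lay between -0.5 and 0.5. The share of all counts taken by the 8 genes was 0.545%, 0.554% and 0.529% in raffinose libraries 1, 2 and 3 and 0.574%, 0.546% and 0.556% in untreated libraries 1, 2 and 3. These shares overlapped, and untreated library 1 was the highest of the 6 for 6 of the 8 subunits while raffinose library 3 was the lowest for 5.

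Levels between genes were compared per length, in the deposited FPKM. The length behind these values was not given. It was worked out from count, library total and FPKM, on the assumption that FPKM was scaled to that total. The result was 1.106 to 1.502 times the combined length of all exons of a gene in GENCODE 29, with a median of 1.19. Another total would change all these ratios alike. The order of genes depends on the annotation. Combined exons span 2980 bases in HSP90AB1, 4849 in HSPA8 and 10655 in CHORDC1. TRiC subunits held a fixed order in most places. CCT4 was the highest in each of the 6 libraries with a mean of 251 FPKM, CCT7 was next with 189, and CCT8 with 130.2, CCT2 with 115 and TCP1 with 73.0 took the lowest ranks in each library. CCT5, CCT6A and CCT3, with means of 150.0, 148 and 141 FPKM, exchanged places between libraries. The ratio of CCT4 to TCP1 was 3.48 ± 0.0782 with raffinose and 3.45 ± 0.583 without (SD, n = 3 per group). In CPM, which takes no account of length, the means were 815 for CCT4 and 423 for TCP1 with raffinose and 814 and 433 without. The lengths worked out from the FPKM values were 3238 bases for CCT4 and 5855 for TCP1, where combined exons span 2830 and 4929. The FPKM ratio therefore also rests on the lengths used.

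**Figure D3:**
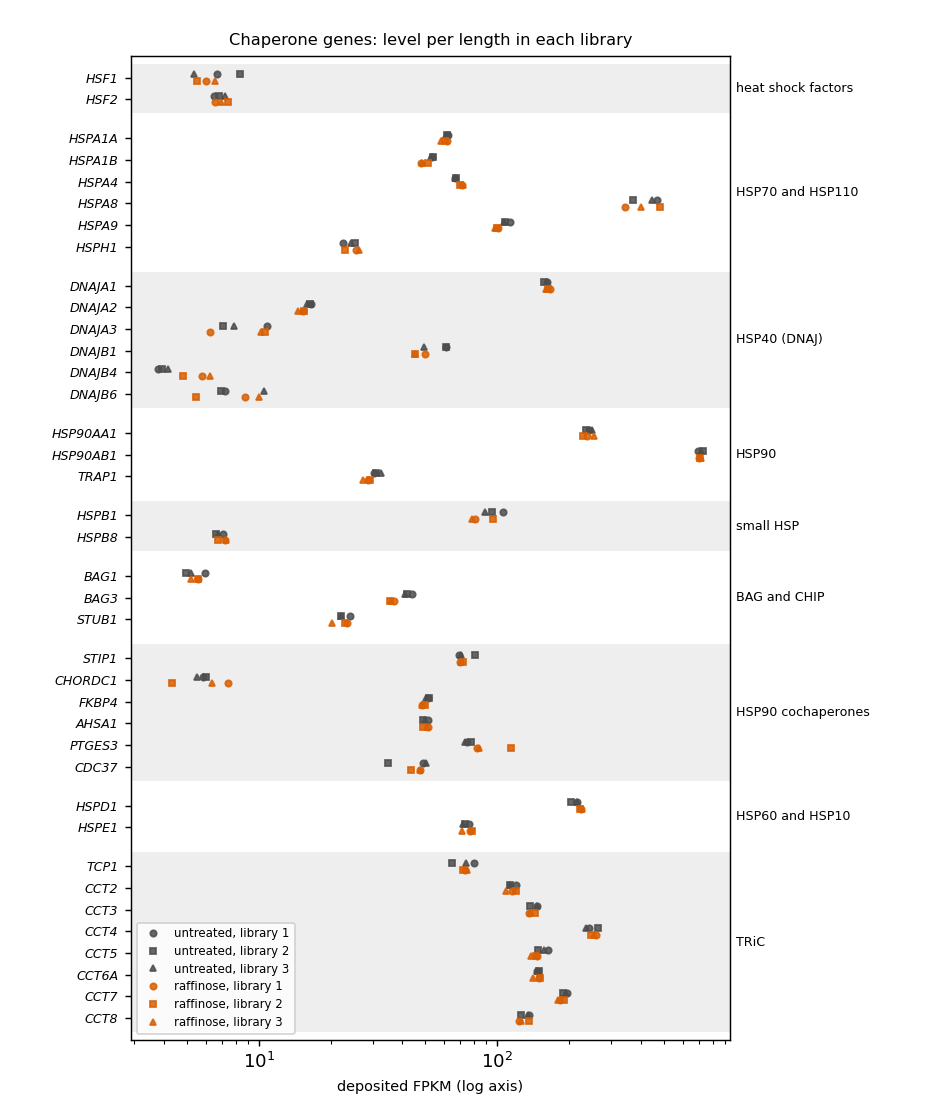
Level per annotated length of each gene in each library. The horizontal axis is the deposited FPKM on a log scale, grey symbols are untreated and orange symbols raffinose-treated libraries. HSP90AB1 and HSPA8 stand highest, TRiC subunits lie between 64.4 and 265 FPKM, and DNAJB4, BAG1, CHORDC1, HSF1 and HSF2 lie among the lowest.

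HSP90AB1 had a mean of 708 FPKM with raffinose and 714 without, above HSPA8 with 407 and 428 and HSP90AA1 with 241 and 242. HSPA1A at 60.1 and 61.5 FPKM and HSPA1B at 49.2 and 53.2 FPKM were far below HSPA8 in either group. The ratio of HSPA8 to HSPA1A was 6.79 ± 1.18 with raffinose and 6.97 ± 0.814 without (SD, n = 3 per group). The difference between these ratios was smaller than their spread. At the low end DNAJB4 had 5.60 and 3.96 FPKM.

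Other genes of the same pathways, given as 6 lists with 93 names of which 90 were tested, are described next to the 38. In each list 0 genes were called by edgeR in either direction. At an unadjusted p under 0.05, 3 of the 90 were higher and 16 lower, where 6.21% and 7.08% of all tested genes were. Among the 7805 tested genes with a mean of at least 20 CPM, a level that not all of the 90 reach, 496 were higher and 859 lower. DESeq2 called 0 higher and 5 lower, where it called 1.76% and 2.83% of the genes it tested. Of those 7805 genes it called 127 higher and 294 lower. The log2 fold change was negative for 56 of the 90 and positive for 34, against 4263 and 3542 of those 7805 genes.

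Among other HSP70 and HSP40 network genes (23 tested, median log2 fold change -0.06), the smallest unadjusted p values belonged to HSPBP1 (-0.24), SGTA (-0.16) and BAG2 (-0.15), all cofactors of HSP70. HSPA6, an HSP70 gene expressed almost only under strong stress, stood at 0.79 to 1.06 CPM with raffinose and 0.862 to 1.92 CPM without. Among other HSP90 cochaperones (20 tested, median -0.05), TOMM34 stood at 90.3, 91.5 and 87.8 CPM with raffinose and at 109, 108 and 106 CPM without (log2 fold change -0.26, edgeR adjusted p = 0.15). RUVBL1, an ATPase of the R2TP complex that assembles kinases of the PIKK family with HSP90, had -0.27, and the dynein cofactor NUDC had -0.20. TOMM34 and RUVBL1 were among the genes called lower by DESeq2.

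Prefoldin and other TRiC partners (11 tested, median -0.05) were led by PDCL3, a phosducin-like cofactor of TRiC, at 38, 39.7 and 35.0 CPM with raffinose and 52.4, 47.0 and 46.5 CPM without. Its groups did not overlap, and its log2 fold change was -0.37 (edgeR adjusted p = 0.176). PFDN2, a prefoldin subunit, had -0.20 and PDCD5 had -0.18, both with overlapping groups. Among TRiC clients (15 tested, median -0.10), MLST8, a subunit of the mTOR complexes folded by TRiC, stood at 37.6, 36.0 and 33.0 CPM with raffinose and at 47.7, 44.9 and 50.3 CPM without. Its log2 fold change was -0.42 (edgeR adjusted p = 0.146). The alpha-tubulin genes TUBA1B and TUBA1C had -0.18 and -0.15.

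The next list held other heat-inducible genes, small heat shock proteins and HSF-related genes (13 of 16 tested, median -0.06). In it SERPINH1, the collagen chaperone HSP47, stood at 52.6, 109 and 44.5 CPM with raffinose and at 130.3, 113 and 113 CPM without. Raffinose library 2 lay near the untreated values while the others were far lower, and the log2 fold change was -0.79 with an edgeR adjusted p of 0.378. HSPB11 had 0.19 and HSBP1L1 -0.18, and neither is taken here as a heat-inducible gene. Among mitochondrial proteases and unfoldases (8 tested, median -0.10), the matrix protease LONP1 stood at 149, 164 and 119 CPM with raffinose and at 206, 205 and 211 CPM without, with a log2 fold change of -0.53 (edgeR adjusted p = 0.176). DESeq2 called it lower. CLPB had -0.18 and CLPP -0.21.

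**Figure D4:**
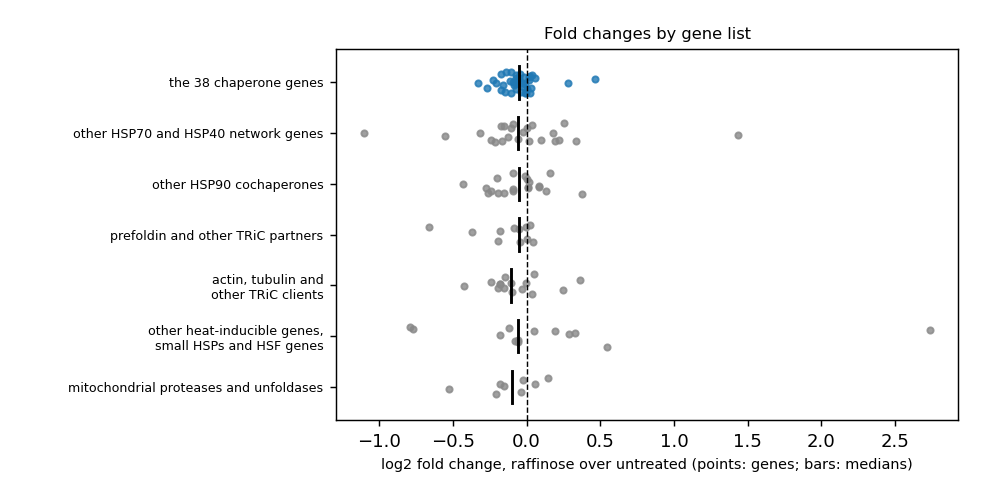
Log2 fold changes of the 38 genes and of the genes in 6 further lists. Each point is a gene, the black bar is the median of its list, and the horizontal axis is the log2 fold change of raffinose over untreated from the edgeR fit. The medians lie between -0.10 and -0.05, and none of the 38 genes lies beyond 0.5 in either direction.

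The libraries had 59723420 to 66063664 counts, and 7 genes were called higher and 16 lower among the 18863 tested. As a check of the labelled line, KRT18, KRT8 and VIM were high at mean FPKM of 455, 334 and 772, whereas KRT19 and EPCAM were under 1. Of the list of epithelial and PANC-1 markers, 5 of 8 had a mean FPKM of at least 1, and their sum was 1385 to 1440 FPKM with raffinose and 1690 to 1864 FPKM without. The part of this difference in the chaperone values was not tested. Of the fibroblast list 2 of 6 markers, COL1A1 and COL3A1, reached 1 FPKM, with sums of 44.6 to 47.3 FPKM with raffinose and 47.9 to 52.0 FPKM without. Of the 4 leukocyte, 3 endothelial, 4 acinar, 4 endocrine and 2 erythroid markers, 0 reached 1 FPKM, and the 4 acinar markers had no count in any library. Mitochondrially encoded genes took 9.35% to 9.66% of counts with raffinose and 8.47% to 9.54% without.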

How the data were processed

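Poly(A) RNA was made into dUTP strand-marked libraries and sequenced as read pairs, per the labels' protocols. The authors deposited estimated counts and FPKM values per gene, per the file headers. StringTie 1.3.4d, HISAT2 2.0.4 and cutadapt 1.9 appear in the submitters' processing notes, as do DESeq2 and edgeR, each without a stated role. The build, the annotation and any use of strand were not given in the sources used here. In the deposited counts the value 4 is over-represented (1382 genes in raffinose library 1, against 456 with 3 and 286 with 5), so 4 seems to stand for 1 read pair and totals overstate fragments. For the members, FPKM behaved as counts over 1 fixed length per gene.

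Deposited counts were tested with edgeR 4.0.16 (R 4.3.3, filterByExpr with a minimum count of 10, TMM, glmQLFit and glmQLFTest, adjusted over 18863 genes), checked on simulated data. Alternatives were DESeq2 1.42.0, limma 3.58.1 on log2(FPKM + 1) and log2(FPKM + 0.1), other size factors, filters, counts divided by 4, robust dispersion, a replicate block and leaving out each library. Scaling by library totals was added after seeing the data. The 38 members and the other lists were chosen with earlier results of these data known. All members are named, and from each other list the called genes or else the 3 with the smallest unadjusted p. HSPA6 and the markers named were chosen after their values were seen.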

Additional observations from a re-analysis of the deposited data

How the results depend on the processing

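By edgeR and by limma, 0 of the 38 genes were called in either direction under each alternative run. DESeq2 called 1 member higher and 1 lower, and in the other lists it called 2 genes among HSP90 cochaperones and 1 each among TRiC partners, TRiC clients and mitochondrial proteases. Over all genes, where the reported count was 23, DESeq2 called 663, the filter at a mean FPKM of 1 gave 42, counts divided by 4 gave 35, and leaving out 1 library gave 4 (without untreated library 3) to 23. Deviations from the group means were nearly uncorrelated between same-numbered libraries (-0.0089, -0.033 and 0.0063). These values cannot show whether such libraries were grown or processed together, and the labels do not say. With the replicate block 0 genes were called by edgeR, 1932 having an unadjusted p under 0.05. The causes were not tested.

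Of 608 values of a member under an alternative, 553 kept their direction and side of the threshold, 2 became called by DESeq2, and 53 changed sign, in 14 members that were near 0 and never called. For 24 members the sign held under all 16 alternatives. On library totals the log2 fold changes that changed sign were 0.022 for HSF2, 0.023 for DNAJA1, 0.014 for BAG1, 0.013 for AHSA1, 0.026 for HSPE1 and 0.0026 for TCP1. With the FPKM filter they were 0.0047 for HSF2, 0.0050 for DNAJA1 and 0.0083 for HSPE1. By limma on log2(FPKM + 1) they were 0.023 for HSF2, 0.027 for DNAJA1, 0.018 for BAG1, 0.017 for AHSA1, 0.029 for HSPE1, 0.012 for TCP1 and 0.00090 for CCT6A, and with a pseudocount of 0.1 they were 0.026 for HSF2, 0.027 for DNAJA1, 0.022 for BAG1, 0.017 for AHSA1, 0.029 for HSPE1, 0.013 for TCP1 and 0.00090 for CCT6A. With the replicate block it was -0.0049 for CHORDC1. Leaving out each library in turn gave -0.071 to 0.032 for HSF2, -0.017 to 0.063 for HSPH1, -0.034 to 0.015 for DNAJA1, -0.12 to 0.24 for DNAJA3, -0.24 to 0.14 for DNAJB6, -0.012 to 0.064 for HSPB8, -0.086 to 0.077 for BAG1, -0.15 to 0.21 for CHORDC1, -0.047 to 0.012 for AHSA1, -0.14 to 0.10 for CDC37, -0.046 to 0.042 for HSPE1, -0.12 to 0.055 for TCP1, -0.039 to 0.041 for CCT4 and -0.065 to 0.0067 for CCT6A. It moved other members by over 1.5 times with no change of sign, to -0.090 to -0.034 for HSPA1A, -0.081 to -0.025 for HSP90AA1, -0.34 to -0.14 for HSPB1, -0.11 to -0.0020 for STUB1, -0.12 to -0.031 for STIP1, 0.0030 to 0.069 for HSPD1, -0.091 to -0.0014 for CCT2, -0.13 to -0.056 for CCT3 and -0.14 to -0.046 for CCT8, beside HSF1, HSPA8 and PTGES3. The spread between 3 libraries per group limits what can be seen for DNAJA3, DNAJB6 and CHORDC1, and 4 counts per read pair make the counting error larger than the totals imply.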
